A study of Mus musculus with 12 samples.

Results

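The comparison set 3 libraries labelled as knockout of both Ep300 and Crebbp against 3 control libraries, 6 of the 12 libraries of the series, across all genes of the deposited count table. All of them came from B16F10, an established mouse melanoma cell line whose cells normally make pigment. The double-knockout libraries carry a genotype label of loss of both genes, and the control libraries are labelled wild type. Every group was grown in DMEM with 10% fetal bovine serum, RNA was purified on RNeasy Plus Mini columns, and KAPA Stranded mRNA-Seq reagents were used for library construction. The labels do not say whether a knockout is 1 clone or a pool, how the genes were disrupted, what the controls received, or whether replicates were grown as separate cultures. P-values here thus reflect the spread among these libraries alone, and that spread may be technical. The other 6 libraries, 3 each of Ep300 knockout and Crebbp knockout, entered the fit only to share its estimate of the spread. A few of their values are set beside the double knockout, for the targeted genes below and for others near the end.

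The proteins made from Ep300 and Crebbp are p300 and CBP, a pair of closely related lysine acetyltransferases. Transcription factors of many families recruit them to promoters and enhancers, where they acetylate histones, among them histone H3, and other proteins of the transcription machinery. In cells of the melanocyte lineage they are known as cofactors of MITF, the transcription factor that drives pigment genes.

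The 6 libraries held 64257251 to 84500360 counts. The levels below are CPM, counts scaled to 1e+06 per library after TMM (trimmed mean of M values), and each change is a log2 fold change of double knockout over control with its standard error, from the edgeR quasi-likelihood test with n = 3 libraries a group. Crebbp (ENSMUSG00000022521, GRCm38 chromosome 16, 4081328 to 4213997, minus strand) had 66.2, 68.7 and 57.1 CPM in double-knockout libraries, against 69.5, 56.7 and 67.9 CPM in control libraries. The groups overlapped, and the gene was at -0.02 ± 0.11 under TMM (adjusted p = 0.922). It was called higher, at 0.62, under ribosomal protein scaling, described below, and with offsets for length and GC it was called lower, at -0.17 (adjusted p = 0.0197). The other targeted gene, Ep300 (ENSMUSG00000055024, on chromosome 15, 81585351 to 81652077, plus strand), had 146, 160.2 and 138 CPM in double-knockout libraries, against 98.5, 85.5 and 99.2 CPM in control libraries. All 3 double-knockout libraries lay above all controls, and the gene rose by 0.65 ± 0.10 (adjusted p = 7.33e-05). Neither targeted gene was called lower under TMM in the libraries labelled double knockout. Against the same controls, Crebbp was at -0.91 in Crebbp knockout, with a mean of 34.5 CPM, a fall not seen in the libraries labelled double knockout. Ep300 was at -0.15 in Ep300 knockout. Why the groups differ in this was not tested. Counts over a whole gene do not show which exons are present or whether protein is made, so they check neither label. The term "double knockout" here is the name the labels give.

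The melanocyte markers, which this cell line should carry, were abundant in both groups. The summed level of 7 of them (Mitf, Sox10, Pmel, Mlana, Tyr, Tyrp1 and Dct) was 7189 to 7512 CPM of the library total, without TMM, in double knockout and 18676 to 19253 in control. Markers of other cell types were low. The 9 fibroblast markers summed to 17 to 18.7 CPM in double knockout and 9.32 to 12.4 in control, with 5 of them below 1 in all 6 libraries. The 13 immune markers summed to 7.06 to 8.15 in double knockout and 3.28 to 3.91 in control. Of these, Cd68 was the one whose level was more than 1 CPM in double knockout, and 6 had no count in any of the 6 libraries, among them Ptprc, Cd3e and Itgam. All 8 endothelial and all 8 epithelial markers stayed below 1 in the 6 libraries.

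After removal of genes with too few counts, 18434 genes were tested and 9102 of them, 49.4%, were called at an adjusted p below 0.05. The calls were split evenly, with 4560 genes higher (24.7%) and 4542 lower (24.6%) in double knockout. Many were small: 4549 of the 9102 called genes differed by less than 1.5-fold, and the median size of a called change was 0.59 on the log2 scale. A change of at least 2-fold was called for 1244 genes higher and 1151 lower, 13% of those tested, or 6.75% and 6.24% by direction, and of at least 4-fold for 468 higher and 350 lower. Tested against a fold change of 1.5 in place of no change, 1223 genes were higher and 1157 lower. In 11010 genes, 59.7%, the 3 libraries of one group lay wholly above the other 3, in 5551 with double knockout above and in 5459 with double knockout below. Since the background of calls is this high, a gene list is read below against 24.7% higher, 24.6% lower and an all-gene median of -0.02. Genes named below by rule for the size of their change were taken only where the groups did not overlap. List members were named by rule for a small adjusted p. Statements that the groups of a named gene lay apart describe its values and add no support.

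How many genes were lower depended on the scaling. TMM assumes that most genes do not differ between libraries. Its scaling factors were 1.10, 1.12 and 1.11 in double knockout, against 0.98, 0.89 and 0.96 in control. With plain library totals, 6955 genes were higher (37.7% of those tested) and 2616 lower (14.2%), so that 72.7% of calls were higher. With the summed counts of the cytosolic ribosomal protein genes as the yardstick, 11084 were higher (60.1%) and 890 lower (4.83%), so that 92.6% of calls were higher. Leaving the mitochondrially encoded and the 100 most abundant genes out of the totals gave 5774 higher (31.3%) and 3406 lower (18.5%). RLE factors gave 4573 and 4524, and upper-quartile factors 4223 and 4916. The median over all genes moved with the scaling, to 0.22 under library totals, 0.63 under ribosomal protein scaling and 0.11 with the trimmed totals.

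Some calls held under all 6 scalings. These were 4223 of the 4560 genes higher under TMM and 890 of the 4542 lower, 5113 in all. Library totals, trimmed totals and ribosomal protein scaling move all genes upward from TMM, so they take away falls far more than rises. Under ribosomal protein scaling, 0 of the 4560 lost their call. Counts of list members that held under all 6 scalings are to be read against these all-gene counts. Another 1275 genes were called in opposite directions by 2 of the scalings, and 3709 were called by none. Of the genes lower under TMM, 1926 were not called lower under library totals, though 0 of them were called higher there, and 991 were called higher under ribosomal protein scaling. A scaling moves all genes together, so the distance of a gene or list from the all-gene median is nearly the same under each of them, and it is given below as the distance. Counts of list members are under TMM where no other scaling is named. Counts carry no measure of RNA per cell, so none of these scalings says whether total RNA per cell differed. In bulk RNA, fewer cells of a kind and less RNA of that kind per cell cannot be told apart.

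**Figure D1:**
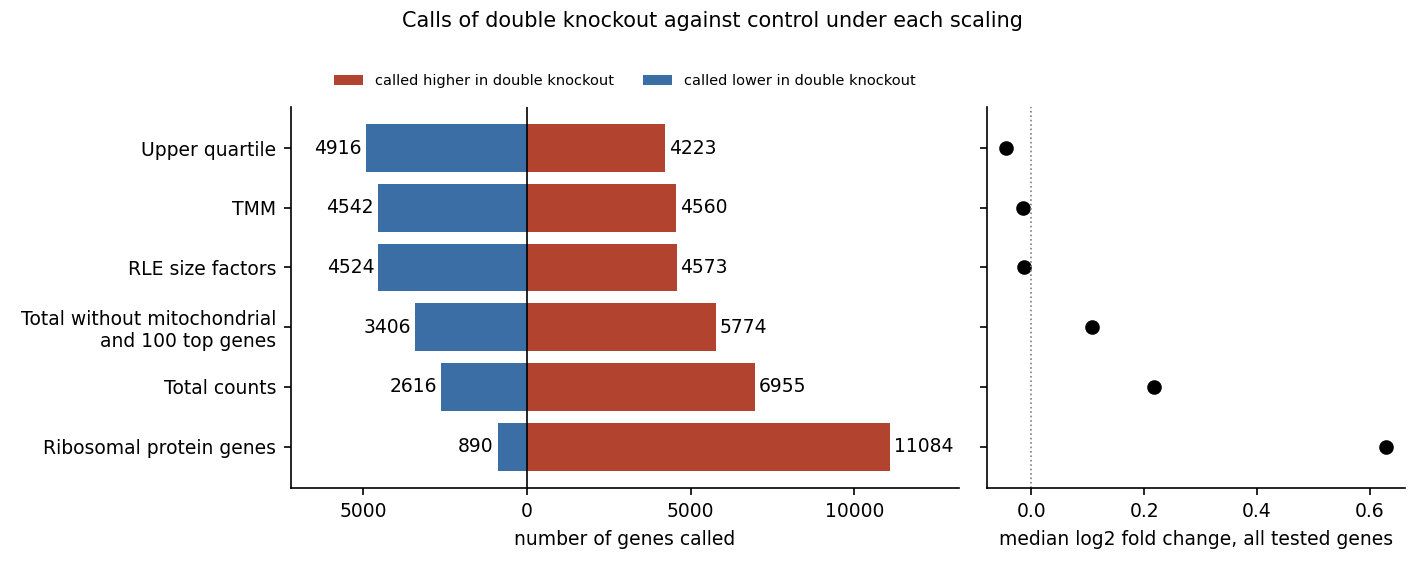
Genes called higher (right of 0) and lower (left of 0) in double knockout than in control under 6 scalings, and, on the right, the median log2 fold change of all 18434 tested genes under each. Calls run from 4223 higher and 4916 lower with upper-quartile factors to 11084 higher and 890 lower with ribosomal protein scaling, while the median moves from near 0 to 0.63.

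The composition of the libraries differed between the groups. The 100 most abundant genes took 20.7%, 19.9% and 21.2% of counts in double knockout, against 25.3%, 27.3% and 26.4% in control. Cytosolic ribosomal protein genes took 4.90%, 4.33% and 4.79% in double knockout, against 5.80%, 6.73% and 6.17% in control. Neither share overlapped between groups, and control replicate 2 stood highest of the controls in both. Mitochondrially encoded genes took 3.39%, 3.02% and 3.62% of counts in double knockout, against 5.04%, 4.39% and 5.31% in control. The 7SK RNA Rn7sk, a noncoding RNA that holds back transcription elongation, was the most abundant gene in the table, at 2.65%, 2.58% and 3.04% of counts in double knockout, against 3.21%, 3.97% and 3.58% in control. Its log2 fold change was -0.62 ± 0.17 under TMM (adjusted p = 0.00582) and 0.04 under ribosomal protein scaling. Rn7sk has 331 bases, and mRNA libraries measure such short noncoding RNAs only partly. The mRNA of translation elongation factor Eef1a1 took 1.33%, 1.23% and 1.24% of counts in double knockout and 1.6%, 1.93% and 1.61% in control.

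**Figure D2:**
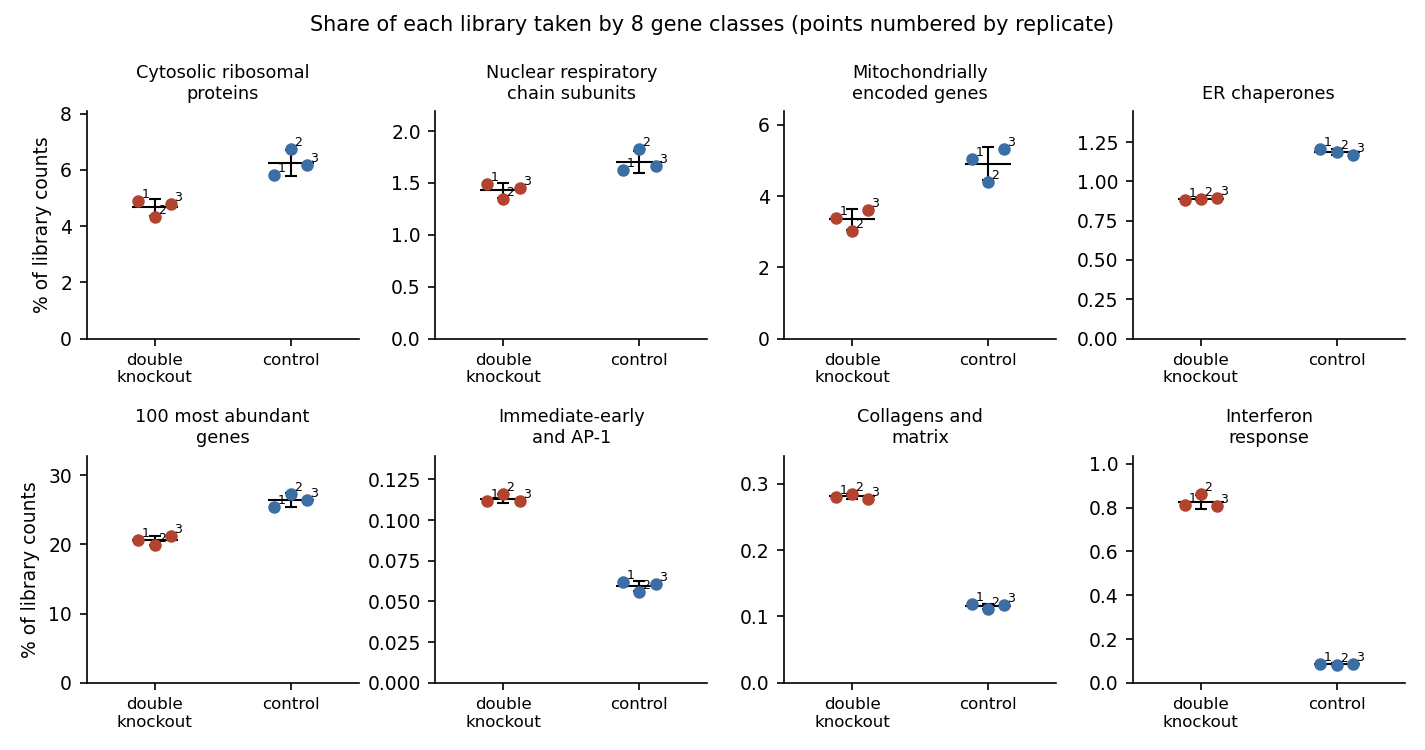
Percent of each library's counts taken by 8 gene classes, with double knockout left and control right, points numbered by replicate, and the mean with its SD (n = 3). Ribosomal protein, respiratory chain, mitochondrially encoded, endoplasmic reticulum chaperone and the most abundant genes took a smaller share in all 3 double-knockout libraries, and immediate-early, matrix and interferon genes a larger one. Shares weigh abundant genes most, and matrix genes were evenly split in calls.

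Abundant and short transcripts tended to be lower under TMM. In the most abundant eighth of tested genes the median log2 fold change was -0.18, and 46.6% were called lower and 18.5% higher. Protein-coding genes of at least 5 CPM were split into eighths by exon length. The shortest eighth, at a median of 1582 bases, had a median log2 fold change of -0.25 with 49.3% called lower, and the longest, at 12266 bases, one of 0.16 with 45.2% called higher. Offsets for exon length and GC content within each library brought these medians to -0.13 and 0.06. With the offsets, 25.6% of all tested genes were called higher and 26.8% lower. The tilt with length also varied inside the groups. The median log2 deviation of the shortest eighth from its mean over 12 libraries, less that of the longest, was -0.22, -0.40 and -0.21 in double knockout and -0.03, 0.37 and 0.05 in control. The groups did not overlap, and control replicate 2 stood far from its fellows. The part of the tilt in the results by class was not tested beyond these offsets, and values with the offsets and without that library are given where they matter. By GC content, the lowest eighth of all tested genes had a median of -0.09 and the highest 0.18, and with the offsets both were near 0.

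**Figure D3:**
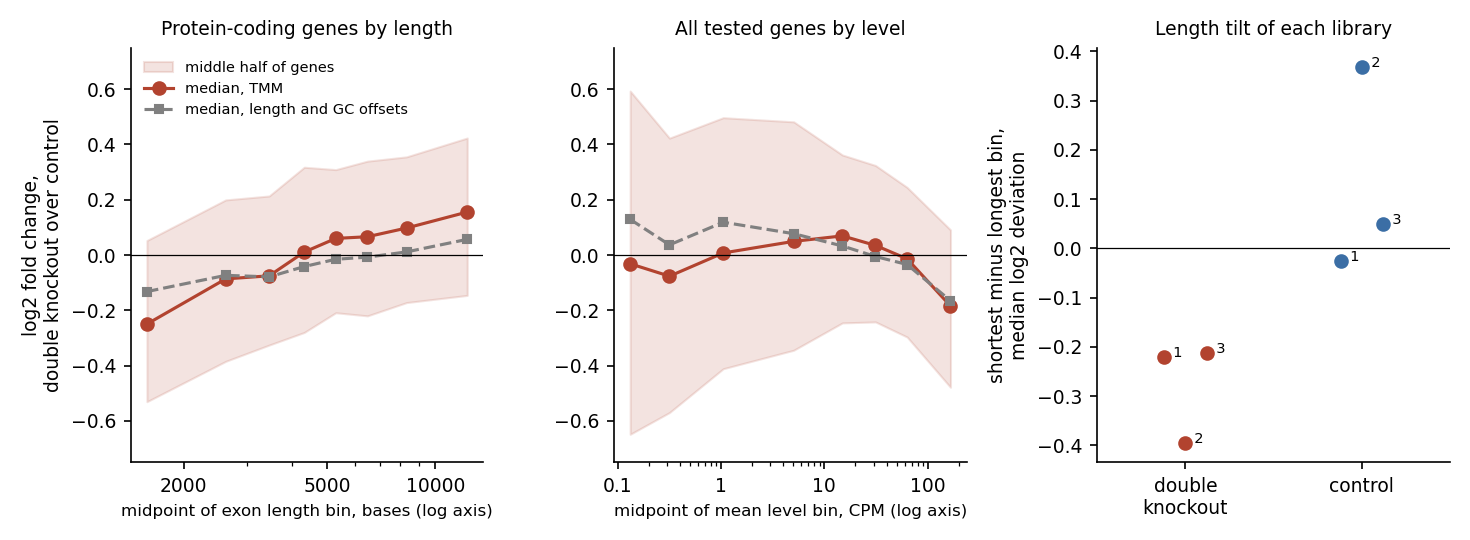
Median log2 fold change of double knockout over control in 8 bins of exon length (left, protein-coding genes of at least 5 CPM) and of mean level over 12 libraries (middle, all tested genes), with the range from the lower to the upper quartile of genes shaded and the medians after length and GC offsets dashed, and the length tilt of each library (right, points numbered by replicate). Under TMM short and abundant genes sit below 0 and long ones above, and control replicate 2 has the highest tilt at 0.37.

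Gene kinds and chromosomes differed less than gene programmes did. Of 12882 protein-coding genes tested, 4108 were higher and 3485 lower. Long intergenic noncoding RNAs were more often lower than higher, with 77 of 710 higher and 206 lower and a median of -0.24, which the offsets brought to -0.09. Small nucleolar RNAs, which guide modification of ribosomal RNA, had 31 of 138 lower (22.5%) and 1 higher (0.725%). Spliceosomal and other small nuclear RNAs had 23 of 99 lower (23.2%) and 2 higher (2.02%). Both shares lower were near the 24.6% of all tested genes, while the shares higher were below the 24.7% of all. The medians of these small RNAs, -0.34 and -0.36, became -0.03 and -0.08 with the offsets, and such short RNAs are measured only partly by mRNA libraries. Across the nuclear chromosomes the medians lay between -0.12 on chromosome 3 and 0.09 on chromosome 19. Only the 19 tested genes of the mitochondrial genome stood outside that range, at -0.67.

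**Figure D4:**
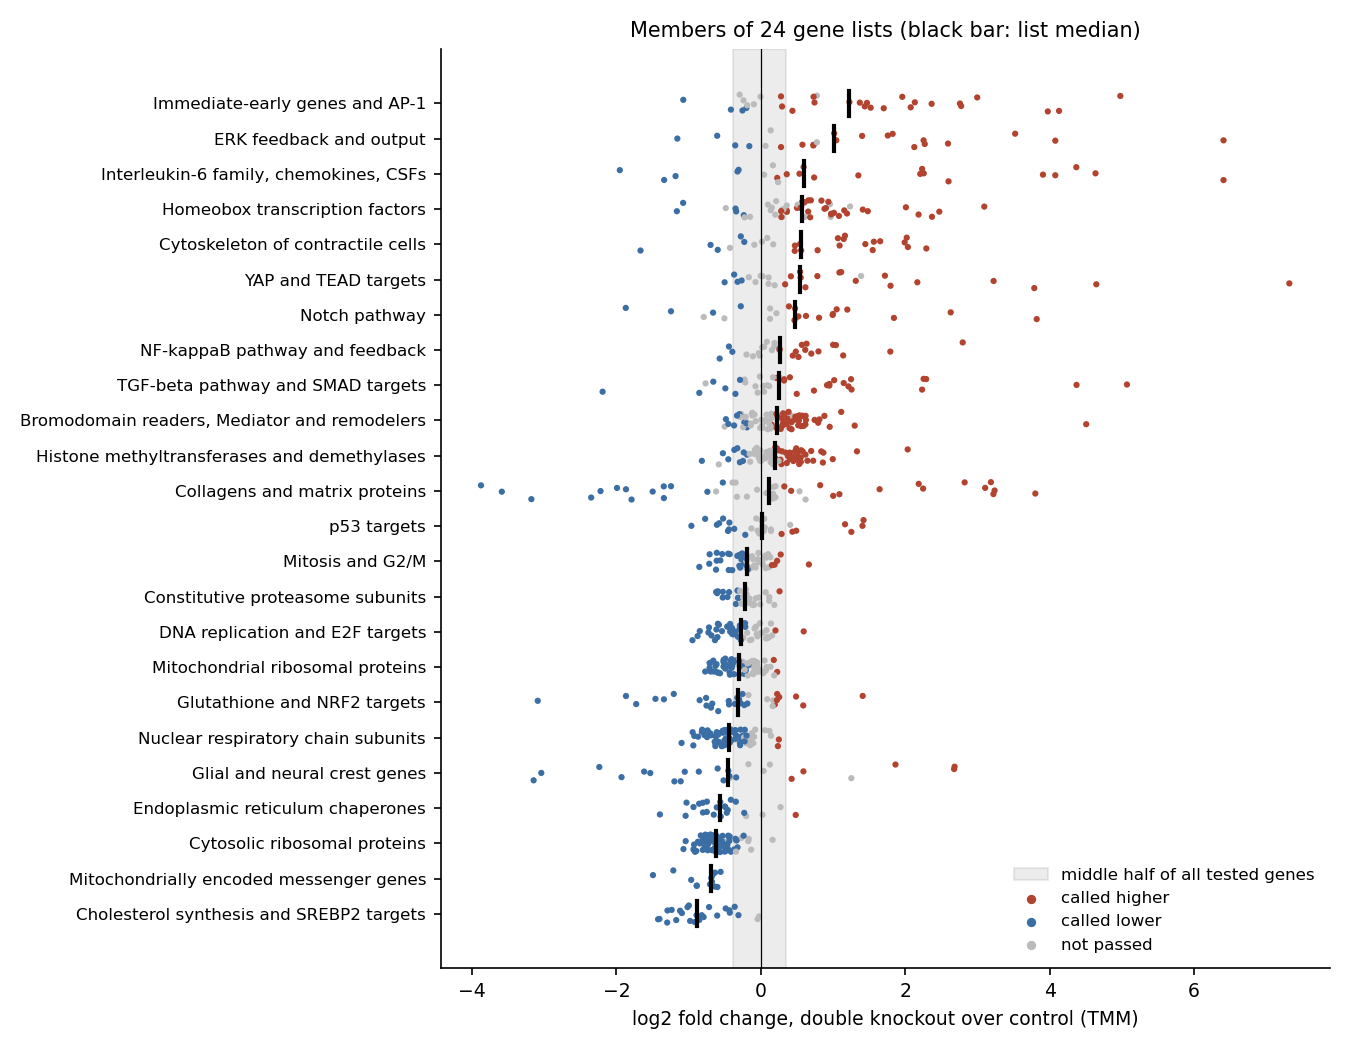
Log2 fold change of double knockout over control for every tested member of 24 gene lists, ordered by median (black bars), with called members in colour, other members in grey, and the range from the lower to the upper quartile of all tested genes shaded. Under TMM the immediate-early, ERK and interleukin-6 family lists have the highest medians, and the medians of the cholesterol, mitochondrially encoded and cytosolic ribosomal protein lists lie left of the shaded band.

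Genes of the ribosome were lower in double knockout under TMM and library totals. Of 84 tested cytosolic ribosomal protein genes, which encode the proteins of the ribosome, 77 fell and 0 rose under TMM, with a median of -0.62. The distance from the all-gene median was -0.61 under TMM, -0.60 under library totals and -0.60 under their own scaling, where 17 were called higher and 9 lower and the median flipped to 0.03. With the length and GC offsets 76 fell, and without control replicate 2 73 fell with a median of -0.52. Rps4x, a protein of the small subunit, had 434, 422 and 430.3 CPM in double-knockout libraries, against 642, 761 and 680.4 CPM in control libraries. All double-knockout libraries lay below all controls, with a change of -0.70 ± 0.08 (adjusted p = 5.94e-06). Rpl37a of the large subunit stood at -0.93 ± 0.11, Rps24 at -1.04 ± 0.17 and Rps25 at -0.91 ± 0.14. The other end of the list, chosen after its values were seen, held Rpl28 at 0.16, Rps28 at -0.13 and Rpl4 at -0.17, none of which passed.

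Translation factors followed in part. Of 62 initiation and elongation factors, 27 fell and 7 rose (median -0.18), while under library totals 17 were higher and 13 lower. Eef1a1, which brings aminoacyl-tRNA to the ribosome, fell by 0.68 ± 0.14. Eef2k, a kinase that inhibits elongation factor 2, had 10.7, 10.8 and 10.5 CPM in double-knockout libraries, against 31.4, 28 and 31.3 CPM in control libraries, with no library between the groups (-1.51 ± 0.10, adjusted p = 5.13e-09). The largest rise in the list was Eif2ak2, the RNA-sensing kinase PKR, which is itself an interferon-induced gene (2.28 ± 0.08). Nucleolar and ribosome biogenesis genes were mixed, with 6 of 40 higher and 16 lower (median -0.08, and 0.16 under library totals). The nucleolar chaperone Npm1 had 1524, 1429 and 1574 CPM in double-knockout libraries, against 2321, 2756 and 2380.4 CPM in control libraries and fell by 0.72 ± 0.11. The RNA acetyltransferase Nat10, at 0.66 ± 0.06, and Mat2a, which makes the methyl donor S-adenosylmethionine, at -0.87 ± 0.09, had the smallest adjusted p of that list in each direction. Among tRNA synthetases 9 of 37 rose and 9 fell, and 22 were higher and 2 lower under library totals, with Lars, the cytosolic leucine enzyme, at 0.37 ± 0.07.

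In both genomes more mitochondrial genes were lower than higher under TMM and library totals. All 13 protein genes of the mitochondrial genome fell under TMM (median -0.69). Under ribosomal protein scaling 4 of them were lower and 0 higher, and with the offsets 10 fell, with a median of -0.41. The complex I subunit mt-Nd3 had 285, 264 and 329 CPM in double-knockout libraries, against 803, 823 and 848 CPM in control libraries, and mt-Nd1 of the same complex had 2019, 1736 and 2117 CPM in double-knockout libraries, against 4442, 4359.9 and 4804 CPM in control libraries. Both groups were clearly apart, with changes of -1.49 ± 0.13 (adjusted p = 2.95e-07) and -1.21 ± 0.18 (adjusted p = 6.45e-05). Of 76 nuclear-encoded subunits of the respiratory chain, 57 fell and 2 rose (median -0.44, distance -0.42), though under ribosomal protein scaling 41 were higher and 5 lower. The succinate dehydrogenase subunit Sdhb had 249.7, 236 and 235 CPM in double-knockout libraries, against 413, 526 and 428 CPM in control libraries and fell by 0.92 ± 0.10 (adjusted p = 2.25e-06), while its partner Sdha, added after its value was seen, rose by 0.24 ± 0.08. Ndufb5 of complex I stood at -0.82 ± 0.09. Of 76 mitochondrial ribosomal proteins, 43 fell and 2 rose, with a median of -0.30 that turned to 0.35 under ribosomal protein scaling. Without control replicate 2 the median was -0.19 with 31 lower, and under library totals it was -0.06 with 23 lower and 12 higher. Its best supported members were Mrpl36 at -0.71 ± 0.06 and Mrpl42 at -0.64 ± 0.08. These lists hold short genes, with median exon lengths of 1776 bases for cytosolic ribosomal proteins and 1696 for respiratory chain subunits, against 4438 for all protein-coding genes tested. The length tilt of the libraries described above moved with the groups.

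Chaperones of the endoplasmic reticulum, which fold secreted and membrane proteins, were lower under TMM and library totals. Their median exon length, 3386 bases, lies between those of the lists above and of all protein-coding genes, and with the offsets 20 fell with a median of -0.53. Of 24 tested, 20 fell and 1 rose (median -0.56, distance -0.54). Under library totals 17 were lower, and under ribosomal protein scaling 5 were higher and 4 lower. Sdf2l1, a cofactor of the chaperone BiP, had 48.2, 46.7 and 47.7 CPM in double-knockout libraries, against 116, 140.0 and 119.5 CPM in control libraries. It fell by 1.40 ± 0.08 (adjusted p = 2.43e-09) and every double-knockout library lay below every control. The disulfide isomerase Pdia4 fell by 0.85 ± 0.07. Hspa5, which encodes BiP, averaged 1227 CPM in double knockout and 2142 CPM in control, and was added after its value was seen (-0.80 ± 0.10). The one riser, also outside the rule, was Syvn1, a ubiquitin ligase that disposes of misfolded proteins, at 0.48 ± 0.10. Cytosolic heat shock genes did not follow, with 9 of 23 higher, 8 of them under all 6 scalings, and 3 lower, 0 under all. The small heat shock protein Cryab had 418, 422 and 410.3 CPM in double-knockout libraries, against 183, 181 and 179.7 CPM in control libraries, all double-knockout libraries above all controls (1.20 ± 0.06, adjusted p = 3.01e-10), and the inducible Hspa1b stood at 1.43 ± 0.09. Hspa1b has a near-identical copy, Hspa1a, with which reads can be shared. Constitutive proteasome subunits had 11 of 32 lower and 1 higher under TMM, but 7 higher and 5 lower under library totals, with the regulatory subunits Psmd8 at -0.53 ± 0.10 and Psmd13 at -0.53 ± 0.11.

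Genes of the integrated stress response changed in both directions under TMM, and the falls depended on the scaling. Of 32 tested, 11 rose and 13 fell (median -0.01). Under library totals 15 were higher and 4 lower, and under ribosomal protein scaling 22 and 0. All 11 rises and 0 of the falls held under all 6 scalings. Over all tested genes, 4223 of 4560 rises and 890 of 4542 falls did, so rises hold more readily in any list. Atf3, a stress-induced transcription factor, had 77.5, 74.9 and 74.8 CPM in double-knockout libraries, against 15.9, 18.3 and 17.6 CPM in control libraries, the libraries of each group close together (2.13 ± 0.07, adjusted p = 4.56e-12). Ppp1r15a, which directs dephosphorylation of eIF2-alpha, rose by 1.36 ± 0.09. Other members, chosen after their values were seen, included the serine synthesis genes Phgdh at -0.74 ± 0.09 and Psat1 at -0.67 ± 0.10, both lower. Of 30 amino acid transporters, 4 rose and 12 fell, while under library totals 9 were higher and 6 lower. The neutral amino acid transporter Slc6a15 stood at -1.09 ± 0.08, and the cystine transporter Slc7a11 had 37.9, 44.6 and 39.7 CPM in double-knockout libraries, against 78.3, 64.5 and 77.2 CPM in control libraries, the groups apart (-0.85 ± 0.09, adjusted p = 1.69e-06).

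Genes of cholesterol synthesis were lower, and none of them was called higher under TMM. The genes of the list are induced by SREBP2 when membranes lack cholesterol. Of 26 tested, 24 fell and 0 rose under TMM (median -0.88, distance -0.86). The median stayed below 0 under every scaling, at -0.64 with 20 lower under library totals and -0.23 with 11 lower and 3 higher under ribosomal protein scaling. With the offsets 25 fell. Insig1, which retains SREBP in the endoplasmic reticulum, had 139, 133 and 136 CPM in double-knockout libraries, against 339.8, 391 and 349 CPM in control libraries. Hmgcs1, an early enzyme of the pathway, had 78.4, 80.1 and 73.4 CPM in double-knockout libraries, against 171, 162 and 162 CPM in control libraries. In both genes the libraries of a group lay close together and far from the other group, with falls of 1.40 ± 0.07 (adjusted p = 5.89e-10) and 1.09 ± 0.06 (adjusted p = 2.02e-09). Members chosen after their values were seen ran from Fdps at -1.42 ± 0.10, Idi1 at -1.29 ± 0.13 and Cyp51 at -1.24 ± 0.08 to Srebf2, the gene of SREBP2 itself, at -0.44 ± 0.08. Ggps1, also chosen after its value was seen, did not pass, at -0.02.
The promoters of both leading members are shown because most windows of this list share one motif, the CCAAT box bound by NF-Y (CCAAT on either strand, ATTGG where it lies on the other). It was present in 17 of 21 windows of the list, 81.0%, against 35.3% of 14093 windows of all tested genes. The list was written from known genes of the pathway, so the share describes the list and not the response. Among all genes called lower the share was 36.2%. It was 31.5% for genes at least 2-fold lower and 34.6% for genes at least 2-fold higher. The 250 bases before the start, from RefSeq on GRCm38.p6 and read 5′ to 3′ along the gene, have the motif in capitals (Insig1 at chr5:28071162-28071411, plus strand, and Hmgcs1 at chr13:119690101-119690350, plus strand).
Insig1: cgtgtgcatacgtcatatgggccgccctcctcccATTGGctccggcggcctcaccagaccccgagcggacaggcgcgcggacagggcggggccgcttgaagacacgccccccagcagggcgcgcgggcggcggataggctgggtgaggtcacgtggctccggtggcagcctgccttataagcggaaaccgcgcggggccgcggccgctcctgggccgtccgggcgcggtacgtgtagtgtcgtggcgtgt
Hmgcs1: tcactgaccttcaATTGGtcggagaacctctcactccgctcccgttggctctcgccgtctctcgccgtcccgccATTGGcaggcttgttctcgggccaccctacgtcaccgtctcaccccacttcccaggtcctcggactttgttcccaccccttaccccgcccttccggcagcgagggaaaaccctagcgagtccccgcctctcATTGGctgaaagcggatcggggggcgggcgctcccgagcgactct
The sterol regulatory element searched, TCACNCCAC on both strands, was in 1 window of the list, that of Hmgcs1, and in 1.10% of all windows. A match is a description of the letters and shows no binding.

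Other lipid and energy genes moved less evenly. Of 25 genes of fatty acid synthesis and desaturation, 15 fell and 2 rose (median -0.28, and -0.45 with the offsets), and under ribosomal protein scaling 12 were higher and 2 lower. Acsl3, which activates fatty acids, had 69.6, 69.5 and 71.5 CPM in double-knockout libraries, against 182, 184 and 175 CPM in control libraries (-1.36 ± 0.06, adjusted p = 1.14e-10), and the elongase Elovl6 fell by 1.04 ± 0.06. The 3 libraries of each group lay close together in Acsl3. Peroxisomal and fatty acid oxidation genes had 14 of 33 higher and 9 lower, of which 14 and 1 held under all 6 scalings, with the peroxisomal enzyme Ehhadh at -1.30 ± 0.09 and the mitochondrial dehydrogenase Acadvl at 0.94 ± 0.08. Hypoxia and glycolysis genes had 15 of 38 lower and 8 higher under TMM, and 7 lower and 11 higher under library totals. The stress-responsive Ndrg1 had 8.09, 8.96 and 8.55 CPM in double-knockout libraries, against 38.9, 36.3 and 38.1 CPM in control libraries, with -2.15 ± 0.09 as its change (adjusted p = 4.18e-11), and the glycolytic aldolase Aldoc fell by 1.62 ± 0.09.

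Antioxidant genes were more often lower than higher under TMM. Of 32 glutathione and NRF2 target genes, 21 fell and 7 rose (median -0.31), against 12 and 9 under library totals and 6 and 17 under ribosomal protein scaling. Peroxiredoxin 1, Prdx1, was among the largest losses in absolute level. It had 1267, 1068 and 1201 CPM in double-knockout libraries, against 3572, 4395 and 3734 CPM in control libraries (-1.73 ± 0.14, adjusted p = 7.53e-08), and the lowest control was far above the highest double-knockout library. The glutathione transferases Gsta1 and Gsta2 fell by 3.09 ± 0.13 and 3.12 ± 0.14. They are near-identical paralogs whose reads may be split between them, so the values of each alone are uncertain. Hmox1, heme oxygenase, went the other way, with 140.2, 141 and 133 CPM in double-knockout libraries, against 53.2, 48.5 and 54 CPM in control libraries (1.41 ± 0.07, adjusted p = 2.26e-10). Lysosomal genes had 20 of 50 lower and 10 higher, with 14 and 19 under library totals. Among them the protease Ctsd had 162, 173 and 169 CPM in double-knockout libraries, against 387, 403 and 376 CPM in control libraries (-1.21 ± 0.07) and the protease Ctso was at 1.28 ± 0.13. Autophagy genes were split under TMM, with 12 of 38 higher, the largest being Map1lc3a at 1.53 ± 0.10, and 11 lower, among them the receptor Optn at -0.81 ± 0.07. Under library totals 20 were higher and 6 lower, and 12 of the rises and 1 of the falls held under all 6 scalings.

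Among the 12 largest rises, taken from genes of at least 5 CPM outside interferon genes, were secreted signals and an early-response factor. Il11, which encodes an interleukin-6 type cytokine (ENSMUSG00000004371, chromosome 7, 4772373 to 4782859, minus strand), had 52, 48.6 and 52.4 CPM in double-knockout libraries, against 0.584, 0.525 and 0.675 CPM in control libraries. All double-knockout libraries stood far above the controls, and the change of 6.41 ± 0.14 was the largest of these 12 rises (adjusted p = 2.42e-14). Its relative Lif had 8.49, 7.89 and 8.10 CPM in double-knockout libraries, against 0.457, 0.297 and 0.662 CPM in control libraries (4.08 ± 0.20, adjusted p = 2.69e-10), and Il6 stood under 0.1 CPM on average in control, with 2.50, 2.16 and 2.85 CPM in double-knockout libraries, against 0.102, 0.0350 and 0.149 CPM in control libraries. Of 23 tested members of the interleukin-6 family, chemokines and colony-stimulating factors, 15 rose and 5 fell (median 0.59, distance 0.61). Members named after their values were seen were the cytokine Clcf1 at 3.91 ± 0.21, the colony-stimulating factor Csf1 at 2.21 ± 0.12 and the receptor subunit Cntfr, which fell by 1.95 ± 0.11.
The promoter of Il11 is shown as the gene with the largest of these 12 rises, with its match to the AP-1 motif (TGANTCA, both strands) in capitals. It is the RefSeq window of 250 bases before the start on GRCm38.p6, chr7:4778142-4778391, minus strand.
Il11: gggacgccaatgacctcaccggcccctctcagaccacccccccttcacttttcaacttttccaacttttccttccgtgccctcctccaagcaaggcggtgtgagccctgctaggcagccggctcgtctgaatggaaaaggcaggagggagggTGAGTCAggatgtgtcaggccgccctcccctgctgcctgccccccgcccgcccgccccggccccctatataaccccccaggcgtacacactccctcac
A second RefSeq start of Il11 had no match. The motif was in 7.91% of 1125 windows of genes higher by at least 2-fold, in 7.92% of 871 windows of genes lower by at least 2-fold, and in 4.63% of windows of all tested genes.

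Immediate-early genes, which growth signals switch on within minutes, were higher. Of 31 tested members of the list with AP-1 factors, 21 rose and 4 fell, 16 of them rising by at least 2-fold (median 1.23, distance 1.24). The 21 stayed at least that many under library totals (21 higher, 2 lower) and ribosomal protein scaling (26 and 0). The zinc-finger factor Egr1 had 100.3, 104 and 101 CPM in double-knockout libraries, against 3.02, 2.94 and 3.67 CPM in control libraries. No library came near the other group, and the change was 4.98 ± 0.12 (adjusted p = 1.21e-13). Further members, named after their values were seen, were Fosl2 at 2.76 ± 0.11, Fos at 2.37 ± 0.13 and Junb at 2.08 ± 0.09, AP-1 subunits that all rose. Klf6, named in the same way, fell by 0.41 ± 0.07. The AP-1 motif itself was in 0 of 32 promoter windows of this list.

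Genes induced by the ERK kinase pathway were higher as well. Of 23 tested, among them Il11 and Lif, 16 rose and 4 fell (median 1.02, distance 1.03). Under library totals and ribosomal protein scaling, which raise the count over all genes too, 17 and 20 were higher. Errfi1, a feedback inhibitor of EGF receptors, had 72.1, 69.1 and 69.3 CPM in double-knockout libraries, against 14.8, 14.8 and 14.5 CPM in control libraries, with little spread in each group (2.25 ± 0.06, adjusted p = 3.1e-13). Named after the values were seen, the phosphatase Dusp5 was at 3.52 ± 0.19, the ligand Hbegf at 2.59 ± 0.12, and the ERK phosphatase Dusp4 at -1.16 ± 0.07, the last of these lower. Among growth factors and their receptors, 21 of 44 rose and 10 fell. Bdnf, a neurotrophin gene known to be induced through CREB, had 26.7, 25.9 and 25.7 CPM in double-knockout libraries, against 3.59, 3.24 and 3.30 CPM in control libraries (2.95 ± 0.08, adjusted p = 4.12e-13). No library of one group came near the other. The receptor Met, added after its value was seen, fell by 1.41 ± 0.08. The wider CREB and cAMP list had 16 of 35 higher and 10 lower, or 13 and 13 with the offsets, with Prkar2b, a regulatory subunit of protein kinase A, at -1.73 ± 0.07. The motif of CREB, the CRE (TGACGTCA), was in 1.96% of windows of genes at least 2-fold higher, 0.918% of those at least 2-fold lower and 2.47% of all.

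Targets of YAP and TEAD, which respond to cell shape and tension, were higher. Of 28 tested, 16 rose and 4 fell (median 0.55, distance 0.56). Under library totals, where 37.7% of all tested genes were higher and 14.2% lower, 21 were higher and 0 lower. With the offsets 15 were higher and 5 lower. Axl, a receptor tyrosine kinase, had 166, 176 and 172 CPM in double-knockout libraries, against 6.67, 6.82 and 7.05 CPM in control libraries. Ccn1, a secreted matrix protein, had 385, 399 and 403 CPM in double-knockout libraries, against 28.8, 26 and 31.2 CPM in control libraries. In neither gene did a double-knockout library come within 10-fold of a control, and the changes were 4.65 ± 0.11 (adjusted p = 1.02e-13) and 3.79 ± 0.08 (adjusted p = 4.23e-14). Ccn2, the paralog of Ccn1, averaged 45.5 CPM in double knockout and 4.87 CPM in control and was named after its value was seen. Yap1 and Wwtr1 themselves stood at 0.11 and -0.00, and neither passed. Ankrd1, a muscle and stress gene also named after its value was seen, was far above the other members at 7.32, but its level, 1.77 CPM on average in double knockout against 0.00873 CPM in control, leaves the size of the fold poorly measured.
The promoters of Ccn1 and Axl are shown because the TEAD motif (GGAATG, both strands, CATTCC where it lies on the other) was in 14 of 26 windows of this list, 53.8%, against 10.9% of windows of all tested genes. The list was written from genes known as TEAD targets, so the share describes the list and not the response. Among genes changed by at least 2-fold the shares were 15.2% for those higher and 14.5% for those lower. The 250 bases before the start on GRCm38.p6 have the motif in capitals (Ccn1 at chr3:145649986-145650235, minus strand, and Axl at chr7:25788734-25788983, minus strand).
Ccn1: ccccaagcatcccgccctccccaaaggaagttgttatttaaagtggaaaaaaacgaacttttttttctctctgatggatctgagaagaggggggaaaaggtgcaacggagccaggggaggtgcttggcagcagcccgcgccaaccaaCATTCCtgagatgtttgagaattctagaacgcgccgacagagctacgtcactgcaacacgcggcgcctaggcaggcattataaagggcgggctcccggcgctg
Axl: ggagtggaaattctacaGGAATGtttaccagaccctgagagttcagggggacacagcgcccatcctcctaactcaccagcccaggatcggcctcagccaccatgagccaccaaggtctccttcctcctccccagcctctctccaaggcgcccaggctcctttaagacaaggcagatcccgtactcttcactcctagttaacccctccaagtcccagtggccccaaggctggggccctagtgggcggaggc

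TGF-beta and matrix genes changed strongly in both directions. Of 37 tested genes of the TGF-beta pathway, 19 rose and 6 fell (median 0.26). Ltbp1, which holds latent TGF-beta in the matrix, had 45.4, 47.4 and 44.4 CPM in double-knockout libraries, against 2.04, 2.05 and 2.51 CPM in control libraries. All double-knockout libraries lay far above all controls, and it rose by 4.37 ± 0.09 (adjusted p = 2.9e-14). Of 2 further members named after their values were seen, the ligand gene Tgfb1 rose by 2.25 ± 0.12, and Bambi, a decoy receptor, fell by 2.19 ± 0.13. Collagens and other matrix proteins were evenly split, with 14 of 42 tested higher, 11 by at least 2-fold, and 14 lower, 12 by at least 2-fold, while 75 were in the table. Sparc, a collagen-binding matrix protein, was the second largest gain in absolute level, with 1765, 1716 and 1746 CPM in double-knockout libraries, against 791, 869 and 799.7 CPM in control libraries (1.09 ± 0.07). The short-chain collagen Col8a1 had 69, 72.1 and 72.8 CPM in double-knockout libraries, against 4.93, 4.79 and 5.60 CPM in control libraries (3.80 ± 0.08, adjusted p = 1.88e-14), and Thbs1, thrombospondin, 3.11 ± 0.10. Named after their values were seen, fibronectin, Fn1, averaged 365 CPM in double knockout and 51.6 CPM in control, and Col1a2 fell by 3.18 ± 0.21. The list includes 5 of the 9 fibroblast markers, whose sum was higher in double knockout. Of these, Dcn, Lum and Col3a1 were nearly absent in all 6 libraries, Col1a1 averaged 9.05 CPM of the library total in double knockout and 2.45 in control, and Col1a2 went the other way. The part of any other cell type in the matrix values was not tested. As a share of counts, the matrix list took 0.281%, 0.285% and 0.277% of double-knockout libraries, against 0.119%, 0.111% and 0.117% of controls. A share weighs abundant genes most, and the abundant Sparc and Fn1 both rose. With calls evenly split and a list median of 0.12, the share does not mean a rise across the list. Among proteases and inhibitors 18 of 38 rose and 13 fell, of which 17 and 2 held under all 6 scalings. Timp1, an inhibitor of metalloproteinases, had 72.2, 70.9 and 79.5 CPM in double-knockout libraries, against 5.88, 5.82 and 5.50 CPM in control libraries (3.69 ± 0.08, adjusted p = 2.9e-14).

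Adhesion receptors changed in both directions. Of 28 integrin and laminin genes, 12 rose and 7 fell, of which 12 and 4 held under all 6 scalings. Itga3, the alpha chain of a laminin receptor, had 16.9, 15.7 and 15.1 CPM in double-knockout libraries, against 1.46, 1.64 and 1.65 CPM in control libraries, and Itgb3, the beta chain of the vitronectin receptor, had 6.39, 7.06 and 6.08 CPM in double-knockout libraries, against 26.6, 24.7 and 25.5 CPM in control libraries. The first rose by 3.33 ± 0.11 and the second fell by 1.98 ± 0.08, with no overlap in either. Itgb1, the common beta chain, was among the 6 largest gains in absolute level, with 845, 884 and 908 CPM in double-knockout libraries, against 557, 524 and 530.4 CPM in control libraries (0.71 ± 0.07). Cadherins and protocadherins had 17 of 54 higher and 5 lower, led in adjusted p by Cdh6 at 2.64 ± 0.16 and Pcdhb14 at 1.83 ± 0.11. Pcdhb14 belongs to a cluster of similar genes that can share reads. Guidance molecules had 18 of 53 higher and 22 lower, or 20 and 13 under library totals. The ephrin receptor Epha2 had 14.2, 14.1 and 14.5 CPM in double-knockout libraries, against 1.02, 0.997 and 1.09 CPM in control libraries (3.78 ± 0.09, adjusted p = 1.21e-13) and the semaphorin Sema6d -2.56 ± 0.11. Heparan sulfate genes had 13 of 26 lower and 7 higher (median -0.19, 0.04 under library totals and -0.31 with the offsets). Heparanase, Hpse, had 3.57, 3.12 and 2.77 CPM in double-knockout libraries, against 25.2, 24.8 and 22.8 CPM in control libraries (-2.94 ± 0.10), and the syndecan Sdc3 fell by 2.96 ± 0.12.

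The contractile cytoskeleton was higher. Of 27 tested genes 17 rose and 5 fell, with a median of 0.56 and 0.59 with the offsets. Calponin 2, Cnn2, had 119, 118 and 120.4 CPM in double-knockout libraries, against 28.8, 29.9 and 29.6 CPM in control libraries, with little spread in each group (2.02 ± 0.06, adjusted p = 4.12e-13). Named after their values were seen, the myosin Myh9 was at 1.15 ± 0.12, actinin Actn1 at 1.55 ± 0.10 and the focal adhesion protein Zyx at 1.57 ± 0.11. Mylk, myosin light chain kinase, fell by 1.67 ± 0.07. Hspb7, a small heat shock protein of muscle, was the second largest rise named by the rule, with 19.7, 19.7 and 18.9 CPM in double-knockout libraries, against 0.597, 0.542 and 0.567 CPM in control libraries (5.09 ± 0.18), and the acetylcholine receptor subunit Chrnb1 rose by 4.59 ± 0.15.

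Developmental pathways were uneven. Of 23 Notch pathway genes 14 rose and 4 fell (median 0.47). Psen2, a presenilin of the gamma-secretase that cuts Notch, had 22, 22.9 and 22 CPM in double-knockout libraries, against 81.4, 82.1 and 81.1 CPM in control libraries (-1.87 ± 0.06, adjusted p = 3.01e-12), and Hes1, a Notch target, rose by 1.84 ± 0.13. The Wnt list had 15 of 36 higher and 9 lower, or 17 and 5 under library totals, with the R-spondin receptor Lgr6 at 2.95 ± 0.16, the secreted Dkk3 at -1.30 ± 0.07 and, named after its value was seen, the feedback target Axin2 at -1.93 ± 0.15. Hedgehog genes had 8 of 13 higher and 1 lower, the co-receptors Boc at 0.75 ± 0.09 and Cdon at 0.68 ± 0.10 leading in adjusted p. NF-kappaB pathway genes had 15 of 28 higher and 3 lower, with the deubiquitinase Cyld at 0.80 ± 0.06 and the kinase Map3k14 at 1.14 ± 0.11. Retinoid and other nuclear receptor genes had 13 of 26 higher and 6 lower, with the receptor Rara at 1.15 ± 0.11 and the retinal dehydrogenase Aldh1a3 at -1.35 ± 0.13.

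More cell-cycle genes were lower than higher under TMM, and the count depended on the scaling. Of 51 replication and E2F target genes, 30 fell and 2 rose under TMM (median -0.28, distance -0.26). Under library totals 15 were lower and 10 higher, and under ribosomal protein scaling 2 and 31. The replication helicase subunit Gins1 had 16.5, 13.6 and 15.1 CPM in double-knockout libraries, against 27, 32 and 28.1 CPM in control libraries (-0.95 ± 0.10, adjusted p = 2.46e-06), and Rpa2, which coats single-stranded DNA, fell by 0.59 ± 0.06. The groups were apart in both. Mitotic genes had 23 of 48 lower and 5 higher (median -0.19, which turned to 0.04 under library totals). The phosphatase Cdc25b fell by 0.85 ± 0.07, and securin, Pttg1, rose by 0.67 ± 0.07. Among G1 regulators 8 of 23 fell and 3 rose, or 4 and 9 under library totals. Cdk2, the kinase of the G1 to S transition, had 151, 154 and 155 CPM in double-knockout libraries, against 341, 347 and 342 CPM in control libraries, far apart beside the spread within groups (-1.16 ± 0.06, adjusted p = 5.89e-10). The pocket-protein partner E2f4 rose by 0.60 ± 0.07, and the inhibitors Cdkn1a and Cdkn1b, named after their values were seen, were at 0.05 and 0.13 and did not pass.

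Among DNA repair genes, 2 were called at least 2-fold lower under TMM. Brca1, of homologous recombination, had 106, 116 and 109 CPM in double-knockout libraries, against 311, 326 and 314 CPM in control libraries, no library near the other group (-1.52 ± 0.07, adjusted p = 6.79e-11). The checkpoint kinase Chek2 fell by 1.04 ± 0.11. Over the list, 19 of 48 fell and 12 rose, against 5 and 17 under library totals. Of p53 targets 7 of 30 rose and 10 fell, or 13 and 7 under library totals, and all 7 rises but 0 of the falls held under all 6 scalings, with the antiproliferative Btg2 at 1.41 ± 0.07 and the kinase Plk2 at 1.25 ± 0.07. The BCL2 family had 4 of 17 higher and 4 lower, or 8 and 3 under library totals. Its best supported members were the survival proteins Bcl2 at -0.66 ± 0.08 and Bcl2l2 at 0.54 ± 0.08.

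Genes of glia and of the neural crest, from which melanocytes derive, were more often lower than higher under TMM. Of 25 tested, 15 fell and 5 rose (median -0.45), with 11 lower under library totals and 9 lower and 8 higher under ribosomal protein scaling. The list shares Sox10, Pax3 and Ednrb with the pigment list. The calcium-binding S100b had 13.4, 11.6 and 12.7 CPM in double-knockout libraries, against 58.1, 63.5 and 56 CPM in control libraries. A fall of 2.24 ± 0.08 (adjusted p = 6.63e-12) left no overlap. Fabp7, a lipid-binding protein of radial glia, was among the 12 largest falls, with 1.90, 1.38 and 1.59 CPM in double-knockout libraries, against 14, 15.9 and 13.5 CPM in control libraries (-3.15 ± 0.14). In the other direction, and named after their values were seen, the nerve growth factor receptor Ngfr was at 2.68 ± 0.21 and nestin, Nes, at 1.86 ± 0.10. Neuronal and synaptic genes had 11 of 22 tested higher and 6 lower, with the vesicle protein Vamp1 at 1.47 ± 0.09 and the tubulin Tubb3 at -1.08 ± 0.06. Ion channels had 18 of 62 higher and 20 lower, or 19 and 14 under library totals. The sodium channel Scn8a had 23.3, 21.8 and 24.6 CPM in double-knockout libraries, against 66.7, 58.6 and 64.9 CPM in control libraries (-1.45 ± 0.08), and Trpm1, also a melanocyte gene, fell by 2.06 ± 0.07.

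The 12 largest falls, taken from genes of at least 5 CPM, were otherwise of mixed function. Ackr3, a scavenging chemokine receptor (ENSMUSG00000044337, chromosome 1, 90203980 to 90216751, plus strand), had 0.261, 0.319 and 0.214 CPM in double-knockout libraries, against 5.54, 6.82 and 4.65 CPM in control libraries. Its highest double-knockout library was far below its lowest control, and the change was -4.42 ± 0.20 (adjusted p = 1.03e-10). Enpp2, autotaxin, which makes lysophosphatidic acid, had 16.4, 16.9 and 15.1 CPM in double-knockout libraries, against 167, 160.2 and 163 CPM in control libraries (-3.34 ± 0.07, adjusted p = 2.42e-14). The calcium-binding Cpne4 had 4.11, 3.65 and 3.19 CPM in double-knockout libraries, against 39.5, 40.6 and 40.8 CPM in control libraries (-3.46 ± 0.09). Genes of this ranking were taken only where the groups did not overlap, so the separation of their groups was set by the choice. The peptide hormone gene Cck fell by 3.34 ± 0.12, monoglyceride lipase Mgll by 3.11 ± 0.09, while Ripor2 stood at -3.71 ± 0.16, Fam81a at -3.78 ± 0.14, Ccdc13 at -3.64 ± 0.17 and Car8 at -3.26 ± 0.16. Just past the 12 lay Sgk2 at -3.05, as Ccn1 at 3.79 and Epha2 at 3.78 lay just past the 12 rises, which ended with Sgms2, a sphingomyelin synthase, at 3.95 and Col8a1. Also among the 12 rises were Klhdc8a at 4.59 ± 0.18 and Cdsn, corneodesmosin, at 4.14 ± 0.15.

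More chromatin regulators rose than fell, and the medians of their lists were small. Of 80 bromodomain readers, Mediator subunits and remodelers, 43 rose and 8 fell (median 0.23). Of 76 histone methyltransferases and demethylases 38 rose and 9 fell (median 0.20), and of 32 deacetylases and corepressors 15 and 6. Lysine acetyltransferases, a list that includes Ep300 and Crebbp, had 13 of 26 higher and 4 lower (median 0.24, and 0.15 with the offsets). Under library totals 55, 56, 20 and 19 were higher. That scaling raises the share of all tested genes called higher to 37.7%, so the gain is no check of the direction. These are long genes, with median exon lengths of 7666 and 6736 bases for the first pair of lists, and the offsets lowered their medians to 0.14 and 0.10. Brd2, a reader of acetylated histones, had 452, 459.6 and 445 CPM in double-knockout libraries, against 188, 179 and 184 CPM in control libraries. The groups lay far apart (1.30 ± 0.08, adjusted p = 3.22e-09). The demethylase Kdm5b had 89.4, 94.3 and 82.5 CPM in double-knockout libraries, against 38, 32.2 and 35.6 CPM in control libraries (1.33 ± 0.10), the remodeler Smarca2 rose by 0.95 ± 0.07, the deacetylase Hdac7 by 1.74 ± 0.10 and the deacetylase Sirt1 by 0.74 ± 0.06. Prdm16 fell by 0.82 ± 0.07, as did the acetyltransferase Esco2 by 0.59 ± 0.07. Acetyltransferases named after their values were seen were Kat6a at 0.66 ± 0.12, Ncoa1 at 0.63 ± 0.12 and Kat2b at 0.33 ± 0.06.

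Among transcription factor families, homeobox genes were higher. Of 54 homeobox genes above the filter, of 123 in the table, 31 rose and 5 fell (median 0.58, distance 0.59, and 0.51 with the offsets). Hoxb9, a gene of posterior body identity, had 18, 21.1 and 20.1 CPM in double-knockout libraries, against 4.18, 4.39 and 4.47 CPM in control libraries (2.18 ± 0.12, adjusted p = 9.93e-10), and the cofactor Pbx3 had 63.4, 63.5 and 62.4 CPM in double-knockout libraries, against 28.5, 25 and 29.2 CPM in control libraries (1.19 ± 0.08). Neither overlapped between groups. KLF, SOX, FOX and GATA factors had 31 of 72 higher and 15 lower, 26 not passing, with Klf5 at 2.57 ± 0.13 and Klf15 at -1.71 ± 0.09. Among 349 zinc-finger genes named Zfp or Znf, 107 rose, 58 fell and 184 did not pass, with a median of 0.05, and with the mRNA-destabilizing Zfp36 at 2.02 ± 0.13 and Zfp512b at 1.25 ± 0.10. Circadian clock genes had 9 of 22 higher and 6 lower, or 10 and 2 under library totals, with the repressors Nfil3 at 1.28 ± 0.07 and Bhlhe41 at -1.18 ± 0.08. Cilia genes had 26 of 68 higher and 7 lower (median 0.17), with Arl13b at 0.74 ± 0.07 and Bbs1 at 1.02 ± 0.11.

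Imprinted and histone genes gave single large changes. Peg10, an imprinted gene derived from a retrotransposon, had 838, 895 and 784 CPM in double-knockout libraries, against 268, 226 and 255 CPM in control libraries, no library near the other group (1.75 ± 0.11, adjusted p = 3.73e-09). The imprinted Mest rose by 1.21 ± 0.08. Of 24 genes of DNA methylation and imprinting 8 rose and 5 fell, or 10 and 1 under library totals. H3f3b, one of the genes for the replacement histone H3.3, had 1348, 1264 and 1289 CPM in double-knockout libraries, against 731, 848 and 719 CPM in control libraries (0.76 ± 0.10). Replication-dependent histone genes, whose mRNAs lack poly(A) tails and whose copies are alike in sequence, had 23 of 57 lower and 6 higher, or 9 and 11 under library totals and 24 and 11 with the offsets. Their share of counts was 0.631%, 0.567% and 0.616% in double knockout, against 0.611%, 0.670% and 0.632% in control, which overlap. The nuclear long noncoding RNA Malat1 was the largest gain in absolute level, with 1705, 1915 and 2004 CPM in double-knockout libraries, against 982, 642 and 935 CPM in control libraries, the groups apart and control replicate 2 lowest (1.14 ± 0.14, adjusted p = 9.66e-06). Splicing factors had 12 of 38 lower and 7 higher, with Snrpd3 at -0.55 ± 0.09 and Srsf10 at -0.38 ± 0.08, and 3 lower and 19 higher under library totals. Nuclear pore and transport genes had 13 of 52 higher and 16 lower, or 27 and 5 under library totals, and 11 rises and 0 falls held under all 6 scalings, with the importin Ipo4 at 1.11 ± 0.10 and the exportin Xpo6 at 0.71 ± 0.09.

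Few genes were near absent in one group and present in the other. With a mean under 0.1 CPM in one group and at least 2 CPM in the other, 8 genes were low in control and, leaving out clone-named loci, 1 in double knockout. Of the 8, 6 were interferon or antigen presentation genes, among them Oas3, Gbp9, Ifi207 and Ifi27l2a, and the others were Il6 and Nipal1, a magnesium transporter, which had 3.33, 3.13 and 3.38 CPM in double-knockout libraries, against 0.0762, 0.0874 and 0.0270 CPM in control libraries. The one low in double knockout was Azgp1, a secreted lipid-mobilizing glycoprotein, with 0.0435, 0.0472 and 0.0749 CPM in double-knockout libraries, against 2.30, 2.94 and 2.40 CPM in control libraries. Its control libraries were all above 2 CPM, and its change was -5.48 ± 0.28 (adjusted p = 4.27e-10).

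For scale, the interferon and pigment programmes are given briefly. All 65 tested interferon response genes rose (median 3.65) and 29 of 35 melanocyte genes fell (median -1.33) under TMM. The interferon list took 0.812%, 0.865% and 0.807% of counts in double knockout, against 0.0878%, 0.0804% and 0.0849% in control.

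**Figure D5:**
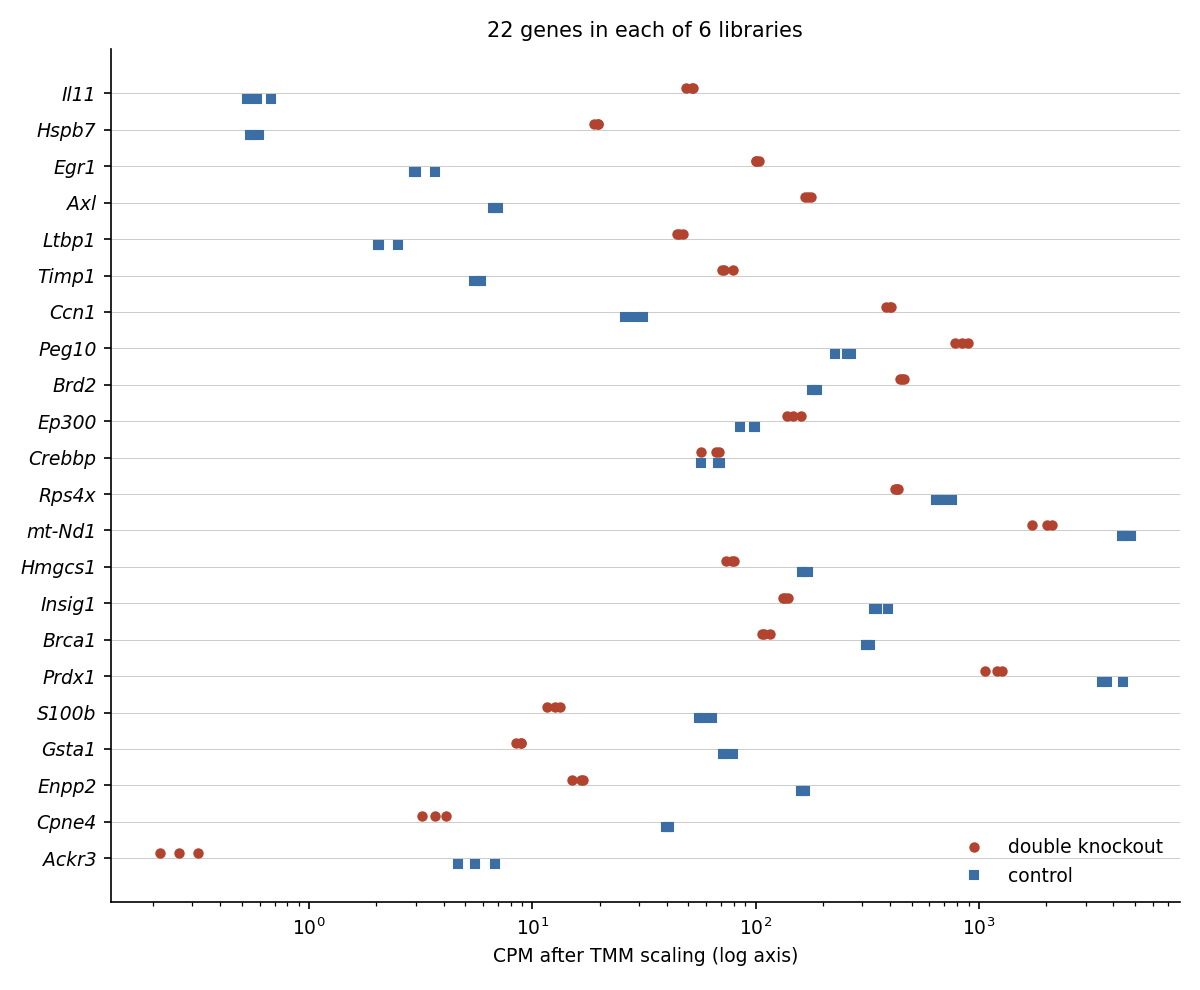
CPM after TMM scaling (log axis) of 22 genes in each library, double knockout as circles above and control as squares below on each row. The rows run from Il11, where double knockout lies near 50 CPM and control below 1, through Crebbp, where the groups overlap, to Ackr3, where double knockout lies near 0.3 CPM and control near 5.

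The single knockouts were measured against the same 3 control libraries, so their changes share that error with the double knockout and are set side by side only as values. Il11 was at 6.41 in double knockout, 3.93 in Ep300 knockout and 1.95 in Crebbp knockout. Egr1 was at 4.98 in double knockout, 2.42 in Ep300 knockout and 1.16 in Crebbp knockout, the order of groups kept for the genes that follow. Peg10 was at 1.75 in double knockout, 0.15 in Ep300 knockout and 0.33 in Crebbp knockout, and Brd2 at 1.30, 0.42 and 0.29. Among falls, Enpp2 was at -3.34 in double knockout, -2.24 in Ep300 knockout and -0.35 in Crebbp knockout. Brca1 was at -1.52, -0.98 and -0.19, Hmgcs1 at -1.09, -0.40 and -0.16, Rps4x at -0.70, -0.28 and -0.14, and mt-Nd3 at -1.49, -0.47 and -0.28. Slc7a11 was at -0.85 in double knockout, -1.48 in Ep300 knockout and -0.46 in Crebbp knockout, and Cck, at -3.34 in double knockout and -2.35 in Ep300 knockout, stood at 0.99 in Crebbp knockout.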

How the data were processed

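The deposited table held raw counts per Ensembl gene for 12 libraries and 54752 genes, 1 column for each library. Per the submitters' processing notes, the authors used bcl2fastq, HISAT2 and HTSeq on the mm10 build (GRCm38). No tool version, strand setting or annotation release is given in the sources used here, so reads of a gene and an overlapping or antisense partner may not be told apart. Symbols, exon lengths and coordinates came from GENCODE M21 on GRCm38, which matched 54723 genes, and promoter windows from RefSeq tables on GRCm38.p6. Of 1000 windows checked per strand, 837 on the plus strand and 830 on the minus strand matched a transcript start as given, and 0 matched reversed.

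Genes were filtered with edgeR 4.0.16 (filterByExpr) and tested by its quasi-likelihood test with TMM factors, over all 4 groups of 3 libraries, which share 1 estimate of the spread, with Benjamini-Hochberg adjustment over 18434 genes. The standard error is the size of the log2 fold change divided by the square root of the F statistic. The biological coefficient of variation was 9.46%. Marker sums are CPM of the library total, without TMM. Bins used the mean over all 12 libraries. R 4.3.3, limma 3.58.1, DESeq2 1.42.0, Python 3.11.15, pandas 2.3.3 and numpy 2.4.6 were used, and the fit was tested on simulated data.

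Named genes were first the targeted genes. Then came the 12 largest rises and falls and the 6 largest gains and losses in CPM. These were taken among called genes of at least 5 CPM with groups that did not overlap. Interferon, antigen presentation and pigment families and predicted, clone-named and mitochondrial genes were left out there. For each list its 2 best supported called members by adjusted p were named, without those limits on level, overlap or family. Up to 6 genes under 0.1 CPM in 1 group and at least 2 CPM in the other were added. Some genes and 1 list are not reported here. The comparison, the lists and the rule were chosen with earlier results of these data known. The 20 alternatives were 5 other scalings, 2 filters, DESeq2, limma-voom, the compared groups alone, the replicate number as a block, length and GC offsets, each of the 6 libraries left out, a test against 1.5-fold, and an adjusted p of 0.01.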

Additional observations from a re-analysis of the deposited data

How the results depend on the processing

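The total of 9102 called genes became 2380 when tested against a fold change of 1.5, with 1223 higher and 1157 lower. Library totals gave 6955 higher and 2616 lower, and ribosomal protein scaling 11084 higher and 890 lower. These settings differ from TMM by 1 factor for each library. Of the 60 lists outside interferon and pigment genes, 26 had more members lower than higher under TMM. The number was 3 under ribosomal protein scaling, 16 with the trimmed totals and 11 under library totals. It was higher, at 32, with the length and GC offsets, and 28 with a filter of 1 CPM in 3 libraries. Leaving out 1 library at a time gave 7653 to 8626 called genes, 3881 to 4285 higher, 3772 to 4341 lower, and 25 to 27 such lists. Apart from a few, such as the targeted genes, the rule took only genes called under TMM. That 147 of its 148 reported genes were called there was thus set by the choice. Fits without 1 library reuse the same libraries, so the 147 called in each of them are no independent check. The same way under ribosomal protein scaling were 127. There Rn7sk turned to 0.0374, Mrpl42 to 0.0197, Psmd8 to 0.13, Psmd13 to 0.13, Snrpd3 to 0.10, Srsf10 to 0.27, Rpa2 to 0.0572 and Esco2 to 0.0540. The call was lost there for Eef1a1, Npm1, Rps4x, Mrpl36, Ndufb5, Mat2a, Pdia4, Optn, Cdc25b, Bcl2, Slc7a11 and Prdm16, and under library totals for Srsf10. Crebbp, near 0 under TMM, was at 0.62 under ribosomal protein scaling, 0.10 with the trimmed totals, 0.21 under library totals, and between -0.103 and 0.0615 in the fits without 1 library. Of the counts of members higher and lower in the 68 lists, 301 moved by over 1.5 times and 2147 did not, over all alternatives. Same-numbered libraries of the 2 groups did not deviate together, with correlations of -0.17, -0.40 and 0.04, so the numbers do not pair them. With the replicate number as a block 8475 genes were called, 4261 higher and 4214 lower, and no named gene changed its call.

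Each group has 3 libraries whose independence the labels do not give. Gene-level counts show neither the disrupted exons nor protein. No spike-in or cell count ties the libraries to RNA per cell, so the direction of abundant classes rests on the scaling. Reads from near-identical genes (Gsta1 and Gsta2, Hspa1a and Hspa1b, histone copies) can be split. Depth limits genes below 1 CPM, where fewer were called.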

Other observations

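The promoter windows of genes that changed by at least 2-fold held fewer CpG dinucleotides. The median window of 250 bases held 11 CpG among 1125 windows of genes at least 2-fold higher, 7 among 871 of genes at least 2-fold lower, and 15 among 14093 of all tested genes. Windows of called genes of any size were close to all windows, at 15 for genes higher and 14 for genes lower. These counts are descriptions, and genes with several starts have several windows.

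Several list members chosen after their values were seen had large changes. Among Notch genes Lfng, which modifies Notch receptors, was at 3.82 ± 0.34, while the receptor Notch1 was at -1.24 ± 0.16. The remodeler Smarca1 was at 4.51 ± 0.63, with 0.363 CPM on average in double knockout and 0.0159 CPM in control. The elastin gene Eln was at -3.59 ± 0.74 and Col14a1 at -3.88 ± 0.27, against Loxl4, a matrix cross-linking enzyme, at 3.24 ± 0.27. The chloride channel Ano2 was at -5.03 ± 0.77 and the semaphorin Sema5a at 4.14 ± 0.37. All of these passed the test, but none was named by the rule. The large standard errors of Ano2, Eln and Smarca1 leave the sizes of their folds poorly measured.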
